A study of Homo sapiens with 12 samples.

Results

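The response to H-Ras in MCF10A cells that lack p53 is described here across all genes with a mean of at least 10 normalised reads in either group. MCF10A, an established cell line, comes from human breast epithelium and does not form tumours. The H-Ras group carried H-RasV12, a mutant H-Ras held in its active, GTP-bound form, which was brought in with a retrovirus and expressed stably. Its control, the vector group, carried the empty pBabepuro vector, and both groups shared a targeted deletion of p53 at exon 2. Both were grown in the same serum-containing medium without further treatment, and 3 libraries were made of each. The series holds another pair of groups, H-Ras and vector in MCF10A with intact p53, also with 3 libraries each. Of 62082 genes in the tables, 13050 reached the minimum, and 13026 of them could be tested. The remaining 24 were very abundant genes without a value for single libraries in 1 or both groups. For a group without them only the authors' deposited mean is given. The H-Ras line was set against the 1 vector line made alongside it, so that H-Ras and any other difference between both lines cannot be told apart. Whether replicates are separate cultures is not stated in the labels, so that p-values reflect only how these libraries varied, technically or otherwise.

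Ras proteins are small GTPases that pass signals from growth factor receptors to the RAF, MEK and ERK kinases and to PI3 kinase. Active ERK raises the transcription of its own inhibitors, the DUSP phosphatases and the Sprouty and SPRED proteins, along with AP-1, EGR and ETS factors. Mammary epithelial cells hold together through cadherins, tight junctions and desmosomes and rest on an epithelial laminin through hemidesmosomes, and factors such as GRHL2, OVOL2 and TP63 keep this state while ZEB and SNAI factors repress it. p53 raises genes that stop the cell cycle or start apoptosis, among them the CDK inhibitor CDKN1A.

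Values are normalised read counts of single libraries, named A, B and C, in that order, and solved from the deposited group means; they carry no replicate number. Fold changes are log2((H-Ras mean + 1)/(vector mean + 1)) with the SE of the fit, and a gene was called when its adjusted p from limma (Benjamini-Hochberg, over all genes tested) was under 0.05. The 6 libraries held an estimated 9082610 to 10084900 reads each, and mitochondrial genes took 3.14% of the H-Ras mean and 2.64% of the vector mean. Pearson's r of log2 values over the tested genes, which are not independent, was 0.985 to 0.992 within groups and 0.865 to 0.878 between them. No libraries agreed within sampling noise. Among the H-Ras libraries, B and C were most alike, with a chi-square of 2.31 per degree of freedom, against 7.502 and 8.06 between each of them and A. Among the vector libraries the values ran between 6.85 and 12.7.

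HRAS checked the labels. It had 16475, 18269 and 18592 normalised reads in the H-Ras libraries, against 848, 793 and 878 in the vector libraries (log2 fold change 4.40 ± 0.083, limma adjusted p = 1.9e-11). Gene counts do not separate the introduced transcript from the cell's own. The deletion of p53 was not checked here. Among 10 markers of breast epithelium, 8 were tested, and 0 rose and 7 fell with H-Ras. Their summed level over the 9 genes with library values was 12233 to 13072 in the H-Ras libraries, against 25378 to 33312 in the vector libraries. ITGB4, which was not called, and EGFR gave most of the H-Ras sum. KRT5 is not in the sums, and its deposited means were 3239 with H-Ras and 45144 with vector. Markers of other cell types were mixed, with several defining ones at 0. Of 10 leukocyte markers 5 had 0 reads in all 6 libraries, among them PTPRC (CD45), and their sum was 761 to 915 with H-Ras, against 141 to 161 with vector. CD14, with 189, 347 and 311 against 79.2, 48.8 and 103, and LAPTM5, with 561, 562 and 477 against 22.2, 33.2 and 19.9, gave most of it, and 2 rose and 1 fell (CSF1R) of the 3 tested. Of 8 endothelial markers PECAM1 and TIE1 had 0 reads in all 6, the 2 tested (KDR and ROBO4) rose, 5 were called higher with no filter, and the sum was 560.4 to 626 with H-Ras, against 81.2 to 112 with vector. Of 10 fibroblast markers COL1A2, COL3A1 and LUM had 0 reads in all 6, 2 of the 4 tested rose (COL6A3 and DCN) and 2 fell (COL1A1 and FAP), and the sum was 12125 to 18075 with H-Ras, against 1031 to 1301 with vector, nearly all of it COL6A3 in the H-Ras group. In these bulk samples fewer cells of a type and less RNA per cell cannot be told apart.

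In the main fit more genes were called different between the H-Ras and vector lines than were not, but this did not hold under every alternative. Called genes were the smaller part in the fit of all 12 libraries (6118 called). The same was true without H-Ras library B (6269), H-Ras library C (6274) or vector library A (6397). It was also true with no filter, where 7551 were called and 21265 genes were above 0 in the H-Ras group alone. Of 13026 genes tested, 7336 were called, which is 56.3%, with 3641 higher (28.0%) and 3695 lower (28.4%), and the median log2 fold change over all genes tested was 0.003. The shares of 28.0% higher and 28.4% lower are the background for every count of gene list members given here. Most of the called changes were under 1 on the log2 scale. A change of at least 1 was found for 2685 called genes, which is 20.6%, and a change of at least 5 for 31 higher and 69 lower ones. In 63.5% of genes tested all H-Ras libraries lay on 1 side of all vector libraries. The deepest changes were losses. There were 38 members with 0 reads in all H-Ras libraries and 19 with 0 reads in all vector libraries. At the edge of the minimum, the 149 members whose higher group mean lay between 10 and 11 had a median log2 fold change of 0.094, and the 138 genes just below, between 9 and 10, had one of -0.055.

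**Figure D1:**
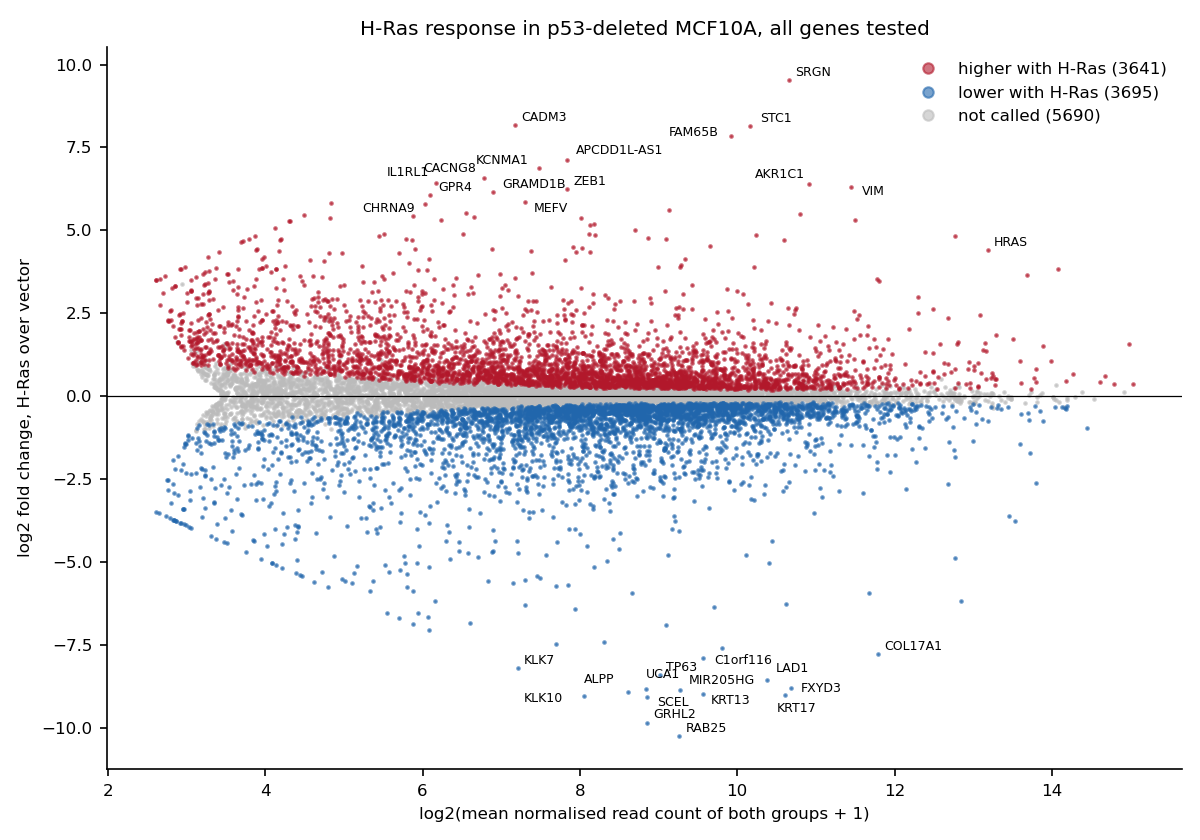
Each point is 1 of the 13026 genes tested. The horizontal axis gives the log2 of the mean normalised read count of both groups plus 1, the vertical axis the log2 fold change of H-Ras over vector in p53-deleted cells, and colour the limma call. The named genes reach 9.54 (SRGN) above and -10.26 below (RAB25, with 0 H-Ras reads, where the 1 added before the log sets the value).

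Epithelial genes were among the strongest losses. RAB25, a small GTPase of epithelial membrane recycling, had 0 in all 3 H-Ras libraries, against 1337, 1044 and 1299 reads in the vector libraries. GRHL2, a transcription factor that sustains epithelial junction genes, had 0 in all 3 H-Ras libraries, against 880.2, 872 and 1015 in the vector libraries. Neither was detected with H-Ras at this depth. With 3 reads per group as the detection floor, RAB25 was at least 1239-fold lower and GRHL2 at least 932-fold lower (limma adjusted p = 2.4e-11 and 3.1e-11). TP63, the p53 relative that specifies basal epithelium, had 0.931, 3.04 and 2.06 with H-Ras, against 999, 1066 and 1031 with vector (-8.42 ± 0.25, limma adjusted p = 5.7e-10). ESRP1, an epithelial splicing factor, kept 18.6, 17.2 and 20.6, against 1623, 1608 and 1695 (-6.37 ± 0.12, limma adjusted p = 1.4e-11). OVOL2, a zinc finger repressor of mesenchymal genes, had 3 reads over the H-Ras group and 106, 97.7 and 121 normalised reads in the vector libraries, a ratio of vector to H-Ras of 106 (95% counting interval 37.0 to 531). These 5 genes had no overlap between groups, as had 63.5% of all genes tested. Of 18 epithelial transcription and splicing factors tested, 1 rose and 15 fell, with a median log2 fold change of -2.59 against 0.003 over all genes. With vector library B left out 2 rose. The 1 that rose in the full set was KLF4, a factor of barrier formation that has roles outside epithelium too, at 240.2, 142 and 153 with H-Ras, against 51.2, 82.1 and 73.4 with vector (1.36 ± 0.23, limma adjusted p = 0.0004).

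Most junction genes fell, while E-cadherin and N-cadherin moved in opposite directions. CDH1, which encodes E-cadherin, the core of the epithelial adherens junction, had 39.1, 42.6 and 36.1 in the H-Ras libraries, against 3089, 2969.7 and 3248 in the vector libraries (-6.27 ± 0.099, limma adjusted p = 4.3e-12). CDH2, which encodes N-cadherin, had 369.6, 343 and 348 with H-Ras, against 57.0, 81.1 and 52.4 with vector (2.46 ± 0.16, limma adjusted p = 2.5e-07). P-cadherin (CDH3) was only partly reduced, at 773, 714 and 747 against 3932, 3590.0 and 4471 (-2.42 ± 0.092), and so was CTNND1, which encodes p120-catenin and stabilises cadherins at the membrane (-1.25 ± 0.088). CDH13, the membrane-anchored T-cadherin, rose (0.68 ± 0.19, limma adjusted p = 0.0081), and CDH16 was not detected with H-Ras, at least 12.7-fold lower. Among 9 cadherins and catenins tested, 2 rose and 6 fell. Of 18 tight junction and polarity genes 0 rose and 16 fell, with a median of -1.84, and 1 rose without vector library C. CLDN1, a sealing claudin, had 4.65, 1.01 and 1.03 with H-Ras, against 119.8, 89.9 and 106 with vector (-5.04 ± 0.39, limma adjusted p = 7.6e-07). CLDN7 fell less, at 263, 325 and 329 against 1174, 881 and 1059.9 (-1.76 ± 0.12). AP1M2, the epithelial subunit of a clathrin adaptor that sorts cargo to the basolateral membrane, had 2.79, 2.03 and 3.09, against 581, 554 and 749 (-7.43 ± 0.20, limma adjusted p = 3.9e-10). MARVELD3, a tight junction membrane protein, fell by 4.73 on the log2 scale. Desmosomes followed, with 0 of 11 genes higher and 10 lower. Their losses were uneven: DSG3, the desmoglein of basal keratinocytes, had 8.38, 7.10 and 9.28 with H-Ras, against 1924, 1527 and 1898 with vector (-7.59 ± 0.15), while DSP, the plaque protein desmoplakin, kept 2234, 2435 and 2394, against 6765, 7023 and 7697 (-1.60 ± 0.082). PKP3, a plakophilin, fell (-2.37 ± 0.13), and PPL, which encodes periplakin, had -1.29 ± 0.24 (limma adjusted p = 0.00088), a call lost when all 12 libraries shared the fit (adjusted p = 0.058).

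ZEB and SNAI factors bind E-boxes with the letters CACCTG. As examples, the promoters of the strongest losses in the tight junction list are shown. They run from 250 bases before to 50 after the gene's start in RefSeq GRCh38.p14, with CACCTG on either strand in capitals. RAB25 lies at chr1:156060910-156061209 on the plus strand and holds 2 matches. AP1M2 lies at chr19:10587263-10587562 on the minus strand and holds 3.
RAB25: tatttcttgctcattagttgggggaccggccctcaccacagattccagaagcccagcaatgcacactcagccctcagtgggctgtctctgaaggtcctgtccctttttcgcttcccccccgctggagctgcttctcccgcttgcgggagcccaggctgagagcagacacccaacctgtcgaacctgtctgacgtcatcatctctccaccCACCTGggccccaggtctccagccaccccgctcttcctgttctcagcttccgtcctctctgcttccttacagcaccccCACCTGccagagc
AP1M2: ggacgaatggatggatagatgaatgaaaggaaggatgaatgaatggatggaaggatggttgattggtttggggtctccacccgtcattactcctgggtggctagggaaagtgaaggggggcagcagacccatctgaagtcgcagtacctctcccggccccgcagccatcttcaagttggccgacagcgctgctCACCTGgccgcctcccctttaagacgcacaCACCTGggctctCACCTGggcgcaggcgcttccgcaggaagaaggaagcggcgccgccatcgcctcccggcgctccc
CACCTG stands in 20.6% of all 27305 promoters of that length in the table, 1 start per gene. Under 80% of the epithelial lists' genes had a promoter there (12 of 18 tight junction genes), so that a share for these lists would be void and none is given. Of all members too, under 80% had a promoter there. Among those that had one, CACCTG stood in 19.5% of members called lower, 18.0% of those not called and 17.2% of those called higher. A match describes letters and shows no binding. A part of ZEB or SNAI factors in these losses was not tested.

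Attachment to the basement membrane and the keratin cytoskeleton changed gene by gene. COL17A1, the transmembrane collagen of hemidesmosomes, had 30.7, 29.4 and 32.99 in the H-Ras libraries, against 6653, 6967 and 7555 in the vector libraries (-7.78 ± 0.092, limma adjusted p = 9e-13). LAMA3 encodes a chain of the epithelial laminin that hemidesmosomes bind. LAMA3 had 414, 459.5 and 488 with H-Ras, against 12819, 13935 and 13788 with vector (-4.89 ± 0.085). The groups were far apart for both genes. Integrin alpha-6 (ITGA6) was less reduced (-1.40 ± 0.078), and its partner ITGB4 had 8505, 8283 and 8883, against 10315, 8694 and 13852, with overlapping groups (-0.36 ± 0.14, limma adjusted p = 0.07, and 0.0077 without vector library B). DST, a plakin that links integrins to keratins in hemidesmosomes, rose (0.93 ± 0.098), as did the tetraspanin CD151 (0.41 ± 0.096), so that of 9 genes 2 rose and 5 fell. Of 12 keratins tested, 1 rose and 10 fell, with a median of -4.14. KRT17, a keratin of basal and stressed epithelium, had 4.65, 5.07 and 5.15 with H-Ras, against 2779, 3413 and 3142 with vector (-9.03 ± 0.13, limma adjusted p = 3.8e-12), and KRT15 had 83.8, 94.3 and 129.9, against 7437, 3250.0 and 8585 (-5.95 ± 0.30). KRT80 was the 1 that rose, at 1218, 1597 and 1759 against 584, 822 and 654 (1.15 ± 0.15). KRT14 had 1.86, 0 and 1.03 with H-Ras, against 90.8, 143 and 112 with vector, and its ratio of vector to H-Ras was 119 (95% counting interval 39.5 to 567). KRT6B fell too (-5.02 ± 0.34); reads of such close keratin copies may be split between genes. KRT5, the main basal keratin, had 2508, 3587 and 3623 in the H-Ras libraries. For its vector group only the deposited mean exists, 45144, against a mean of 3239 with H-Ras. Squamous differentiation genes, 12 of 21 tested, had a median of -4.85, with 8 lower. IVL, which encodes the envelope protein involucrin, had 2 reads with H-Ras and 222, 148 and 205 normalised reads with vector, a vector to H-Ras ratio of 282 (95% counting interval 80.1 to 2406). The kallikrein proteases KLK10, KLK7 and KLK5, which act in skin shedding, went undetected with H-Ras, at least 533-, 297- and 117-fold lower. SPRR1B, another envelope gene, was at least 92.9-fold lower. S100A8 was the single higher call of that list, at 20.5, 58.8 and 42.3 against 14.5, 28.3 and 13.6; its groups overlapped. Its call (limma adjusted p = 0.042) was lost without H-Ras library B (adjusted p = 0.18) or C (0.11), without vector library A (0.14) or C (0.13), and under 3 other settings.

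Other genes with the largest losses have known roles in epithelia too. SCEL, the envelope precursor sciellin, had a vector to H-Ras ratio of 1336 (95% counting interval 385 to 11501). KRT13, a keratin of stratified mucosa, had 1.86, 0 and 4.12 with H-Ras, against 1652, 927 and 1936 with vector (-8.97 ± 0.48, limma adjusted p = 4.9e-08). FXYD3, a regulator of the sodium pump, had 4.65, 5.07 and 9.28, against 3859, 2432 and 3529 (-8.80 ± 0.23), and LAD1, an anchoring filament protein, had 5.59, 6.09 and 6.18, against 2469, 2582 and 2926 (-8.58 ± 0.13). All 4 were near 0 with H-Ras, and their groups did not overlap, as for 63.5% of all genes tested. ALPP, a placental alkaline phosphatase with close paralogs, had a vector to H-Ras ratio of 1258 (95% counting interval 325 to 9719), and for the long noncoding RNA UCA1 it was 893 (95% counting interval 315 to 4474). C1orf116 had 2.79, 6.09 and 7.22, against 1417, 1478 and 1643 (-7.89 ± 0.25).

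MIR205HG, the host transcript of miR-205, was among these losses. It had 1.86, 2.03 and 1.03 normalised reads in the H-Ras libraries, against 1512, 1029 and 1164 in the vector libraries (-8.87 ± 0.22, limma adjusted p = 1.7e-10). The mature microRNA, which is known to target ZEB1 and ZEB2, was not measured in these libraries. Its RefSeq sequence (GRCh38.p14, chr1:209432166-209432187, plus strand) is shown with the seed, bases 2 to 8, in capitals.
miR-205-5p: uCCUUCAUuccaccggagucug

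**Figure D2:**
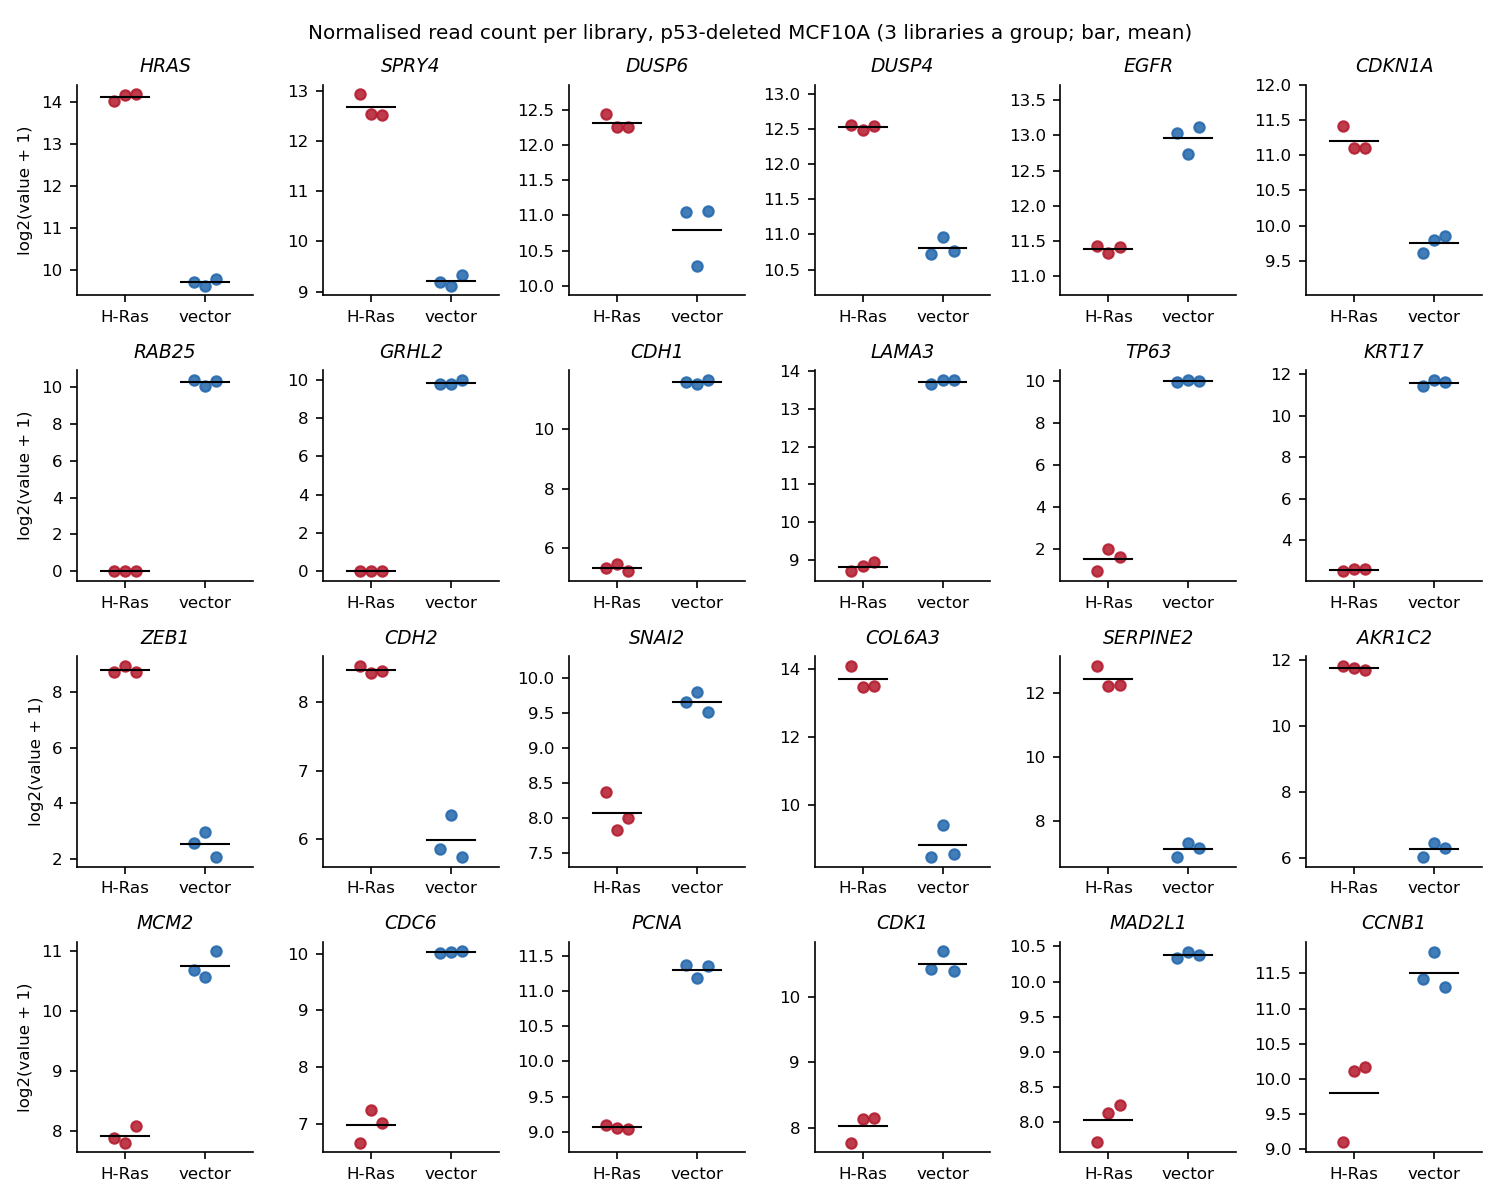
Normalised read counts of 24 genes in the 3 H-Ras (left, red) and 3 vector (right, blue) libraries of p53-deleted cells, on a log2(value + 1) axis of its own range in each panel; bars are means of the log2 values. The groups do not overlap in any of these panels, as in 63.5% of all genes tested. RAB25 and GRHL2 lie at 0 in the H-Ras libraries.

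Factors of the epithelial-mesenchymal transition rose, except SNAI2. ZEB1, a repressor of epithelial genes, had 428, 500.1 and 427 in the H-Ras libraries, against 4.83, 6.84 and 3.15 in the vector libraries (6.25 ± 0.23, limma adjusted p = 3.7e-09). ZEB2, its paralog, had 318, 299 and 331.9, against 17.4, 10.7 and 14.7 (4.38 ± 0.19, limma adjusted p = 1e-08). SNAI1 rose, at 41.0, 45.6 and 54.6 with H-Ras, against 16.4, 11.7 and 9.44 with vector (1.83 ± 0.26), and FOXC2, a forkhead factor, rose to 92.2, 97.4 and 133, against 10.6, 16.6 and 14.7 (2.86 ± 0.23). SNAI2, which encodes Slug and is expressed in basal mammary cells, went the other way, with 332.3, 226 and 256 against 802, 887 and 729 (-1.57 ± 0.14, limma adjusted p = 2.4e-06). Of 8 tested, 7 rose and 1 fell. Among 13 mesenchymal filament, fibronectin and matricellular genes tested, 8 rose and 2 fell, with a median of 1.88. VIM, the intermediate filament vimentin, had 5414, 5647 and 5531 with H-Ras, against 55.1, 96.7 and 53.5 with vector (6.32 ± 0.18). S100A4, a calcium-binding protein of motile cells, had 7714, 5959.8 and 5639, against 650.2, 479 and 541 (3.53 ± 0.13). For SPARC, a matricellular protein, the ratio of H-Ras to vector was 27.4 (95% counting interval 9.20 to 138), and the testican proteoglycan SPOCK1 rose (2.23 ± 0.16). FAP, a membrane protease of activated fibroblasts, fell (-1.85 ± 0.16), and so did the matricellular gene THBS1 (-0.95 ± 0.17). For FN1, which encodes fibronectin, the deposited means were 105136 with H-Ras and 21308 with vector, with no library values in the H-Ras group.

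Matrix genes rose more often than they fell, and single members of each family moved far. COL6A3, a chain of collagen VI, had 17532, 11311 and 11665 in the H-Ras libraries, against 356, 686 and 376 in the vector libraries (4.83 ± 0.23, limma adjusted p = 2.3e-08). COL6A1 (1.44 ± 0.10) and COL6A2 (1.65 ± 0.15), the other chains of that collagen, rose less, and COL13A1, a transmembrane collagen, had 111, 123 and 107, against 6.76, 12.7 and 15.7 (3.17 ± 0.27). COL12A1 (-0.91 ± 0.10) and COL16A1 (-1.28 ± 0.17), both fibril-associated collagens, fell, as did COL1A1 (-0.88 ± 0.20). COL4A1 of the basement membrane had 0.31 ± 0.13 and missed the threshold (limma adjusted p = 0.056), which it passed without H-Ras library A (0.044), without vector library B (0.0037) and under both other scalings. Of 14 collagens tested, 6 rose and 3 fell, against 28.0% higher and 28.4% lower of all genes tested. Of 11 proteoglycans 7 rose and 1 fell, or 2 without vector library B. SRGN, the proteoglycan serglycin of secretory granules, had 3622, 3091 and 2921 with H-Ras, against 2.90, 3.91 and 3.15 with vector (9.54 ± 0.15, limma adjusted p = 4.3e-12), and DCN, the collagen-binding decorin, had 286, 612 and 621, against 13.5, 11.7 and 8.39 (5.38 ± 0.29). For DCN, H-Ras library A was the low one. Syndecans split: SDC3 (2.03 ± 0.091) and SDC2 (1.91 ± 0.28) rose, and SDC1, the epithelial syndecan, had 720.5, 816 and 813, against 3727, 3613 and 4157 (-2.29 ± 0.087).

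Proteases of the matrix and plasminogen system and their inhibitors changed in both directions. SERPINE2, which inhibits thrombin and urokinase, had 7337, 4743 and 4798 in the H-Ras libraries, against 118, 161 and 144 in the vector libraries (5.31 ± 0.16, limma adjusted p = 9e-10). TIMP1, an inhibitor of matrix metalloproteinases, had 45251, 25267 and 26363, against 1991, 2740.1 and 2013 (3.84 ± 0.20). Both were highest in H-Ras library A. PLAUR, the urokinase receptor, rose (1.53 ± 0.18), and MMP2, a gelatinase, rose to 36.3, 25.4 and 30.9, against 0.966, 3.91 and 2.10 (3.26 ± 0.38). TIMP3 (-2.56 ± 0.16) and MMP28 (-3.81 ± 0.26) fell. MMP1, a collagenase, stayed under the minimum in both groups, at 6.52, 2.03 and 2.06 with H-Ras, against 0.966, 0 and 1.05 with vector. Of 13 genes of that list tested, 8 rose and 3 fell. Integrins outside the hemidesmosome counted 10 higher and 3 lower of 14. ITGA10, a collagen receptor subunit, had 2753, 2169 and 2105 with H-Ras, against 83.1, 57.6 and 96.5 with vector (4.87 ± 0.17, limma adjusted p = 2.4e-09). ITGA5, the fibronectin receptor subunit, had 9563, 8549 and 8808, against 1036, 1138 and 1216 (2.99 ± 0.087), and ITGB1, its partner, rose slightly (0.44 ± 0.099). ITGB3, of vitronectin receptors, rose (4.01 ± 0.23), and for ITGA11 the ratio of H-Ras to vector was 98.1 (95% counting interval 18.2 to 4123). ITGB6, an epithelial subunit that activates latent TGF-beta, had 17.7, 10.1 and 8.25, against 643, 1071 and 674 (-5.93 ± 0.27), and ITGB2, known from leukocytes, fell as well (-2.64 ± 0.26).

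Feedback inhibitors of the ERK pathway changed in both directions, the largest changes being gains. SPRY4, a Sprouty inhibitor of receptor signals to Ras, had 7821, 5978 and 5885 in the H-Ras libraries, against 582, 556 and 645 in the vector libraries (3.46 ± 0.11, limma adjusted p = 1.3e-09). DUSP6, the cytoplasmic ERK phosphatase, had 5596, 4911 and 4896, against 2119.8, 1243 and 2149 (1.48 ± 0.18), and DUSP4, a nuclear one, had 6024, 5742 and 5983, against 1680.2, 1991 and 1737 (1.71 ± 0.085). The groups were clear of each other for these genes, as for 63.5% of all genes tested, with vector library B low for DUSP6. DUSP1 (2.58 ± 0.076) and SPRED3 (2.76 ± 0.23) rose, while DUSP7 (-1.05 ± 0.11) and DUSP10 (-1.38 ± 0.15), a phosphatase of stress kinases, fell. Of 16 tested, 8 rose and 6 fell. Among 21 AP-1, EGR and ETS factors 11 rose and 5 fell, or 3 with limma without the mean-variance trend. ETV1, an ETS factor, had 493, 634 and 580.4 with H-Ras, against 81.2, 57.6 and 62.9 with vector (3.06 ± 0.15, limma adjusted p = 2.9e-08), and FOS had 201, 192 and 194, against 59.9, 57.6 and 69.2 (1.64 ± 0.13). EGR1 (1.12 ± 0.09) and EGR2 (2.14 ± 0.32) rose, ETS2 (-1.03 ± 0.11) and the stress factor ATF3 (-2.11 ± 0.34) fell, and FOSL1, which encodes the AP-1 subunit FRA-1, had 1244, 1155 and 1337, against 1359, 1823 and 1315, with overlapping groups (-0.27 ± 0.12, limma adjusted p = 0.095, and 0.039 without vector library C). Other Ras genes moved less than HRAS. MRAS rose (1.02 ± 0.15) and RRAS2 fell (-0.84 ± 0.079). Of the GTPase-activating proteins that switch Ras off, RASA1 (-0.37 ± 0.088), RASAL1 (-1.44 ± 0.24) and DAB2IP (-1.41 ± 0.13) fell. The list of 18 counted 4 higher, HRAS among them, and 5 lower. These shares were no higher than the 28.0% higher and 28.4% lower of all genes tested.

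The receptors EGFR and ERBB3 fell. EGFR, which MCF10A needs for growth in EGF, had 2760.0, 2565 and 2723 in the H-Ras libraries, against 8364, 6791 and 8930.2 in the vector libraries (-1.58 ± 0.10, limma adjusted p = 2.7e-07), and ERBB3, its partner in heterodimers, had -1.55 ± 0.17. Their ligands split. EREG, epiregulin, had 2506, 2392 and 2227 with H-Ras, against 795, 942 and 567 with vector (1.63 ± 0.15), and NRG2 had 65.2, 60.9 and 78.3, against 3.86, 4.88 and 7.34 (3.44 ± 0.27). TGFA (-1.39 ± 0.12) and NRG1, at 19.5, 22.3 and 14.4 against 137, 175 and 135 (-2.92 ± 0.21), fell. Of 12 genes 4 rose and 7 fell. Fibroblast growth factor receptors split: FGFR1 had 415, 401 and 453, against 90.8, 96.7 and 99.6 (2.13 ± 0.11), FGFR2 had 6.52, 8.12 and 9.28, against 139, 129.9 and 108 (-3.82 ± 0.22), and FGFR3 fell (-0.92 ± 0.13). The VEGF receptor KDR rose (2.59 ± 0.27). MET (-0.31 ± 0.082), AXL (-0.30 ± 0.088), ROR1 (-1.47 ± 0.18) and the collagen receptor DDR1 (-0.93 ± 0.11) fell, in a list of 13 with 4 higher and 7 lower. AXL lost its call without H-Ras library B (adjusted p = 0.072) and under 2 other settings (up to 0.11).

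In the TGF-beta list the ligand and its receptor rose while targets split. TGFB1 had 2078, 1839 and 2099 with H-Ras, against 601, 692 and 614 with vector (1.66 ± 0.089, limma adjusted p = 5.8e-08), and TGFBR2 rose (0.82 ± 0.13). LTBP1, which stores the latent ligand in matrix, had 855, 1138 and 1183, against 169, 120.2 and 205 (2.68 ± 0.18). GDF15, a stress-induced relative, had 269, 219 and 243, against 26.1, 18.6 and 32.5 (3.20 ± 0.20). ID3 and ID2, inhibitors of basic helix-loop-helix factors that BMP signals raise, fell, with 68.0, 33.5 and 36.1 against 444, 444 and 443 for ID3 (-3.25 ± 0.22) and -2.21 ± 0.25 for ID2, although BMP2 itself rose (1.12 ± 0.21). Of 22 genes 8 rose and 8 fell, and their median was 0.0064. WNT and Notch genes counted 7 higher and 11 lower of 20. WNT7A, an epithelial Wnt, had a vector to H-Ras ratio of 146 (95% counting interval 48.0 to 687). WNT7B (-2.71 ± 0.13) and WNT10A (-2.71 ± 0.29) fell too, as did the Notch ligand DLL1 (-1.997 ± 0.29) and NOTCH1 (-0.94 ± 0.12). WNT5A, which signals without beta-catenin, had 208, 187 and 174, against 47.3, 38.1 and 62.9 (1.92 ± 0.19), and DKK3 (3.56 ± 0.22) and the Notch target HEY1 (2.38 ± 0.21) rose.

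Inflammatory genes rose in part. IL8, which encodes the neutrophil attractant CXCL8, had 733, 281 and 255 in the H-Ras libraries, against 27.1, 26.4 and 17.8 in the vector libraries (4.10 ± 0.34, limma adjusted p = 2.3e-06). CXCL1, of the same chemokine class, had 518, 356 and 329.9, against 72.5, 74.2 and 65.0 (2.49 ± 0.17). H-Ras library A was the high one for both. CXCL3 (2.73 ± 0.27) and CCL20 (1.79 ± 0.35) rose, CXCL16 (-1.21 ± 0.16) and CCL28 (-0.62 ± 0.21) fell, and of 16 chemokines 7 were tested, 5 of them higher. CCL28 lost its call without H-Ras library B (adjusted p = 0.1), without vector library A (0.13) and under 2 other settings, which leaves 1 lower chemokine. IL6 was low, with 1 read over the vector group, and its H-Ras to vector ratio was 53.2 (95% counting interval 9.06 to 2120.0). IL24 had 254, 117 and 102, against 9.66, 19.5 and 8.39 (3.55 ± 0.37), and the interleukin-33 receptor IL1RL1 had a ratio of 218 (95% counting interval 58.7 to 1767). Members of the interleukin-1 system differed. IL1A had 250.4, 164 and 166 with H-Ras, against 882, 1183 and 864 with vector (-2.33 ± 0.17, limma adjusted p = 6e-07), the antagonist IL1RN was not detected with H-Ras, at least 41.7-fold lower, and IL1B had 1668, 1200.1 and 1165, against 1349.7, 1239 and 1460.4, with overlapping groups (-0.0056 ± 0.13, limma adjusted p = 0.9), and its sign turned under 5 alternatives. The interleukin list counted 10 higher and 4 lower of 15. Of 14 NF-kappaB genes 6 rose and 2 fell, and the share called in either direction (57.1%) was near the 56.3% of all genes tested. CD70 (2.87 ± 0.30), ICAM1, at 526, 344 and 347 against 82.1, 54.7 and 83.9 (2.45 ± 0.20), BCL3 (0.97 ± 0.17) and the inhibitor NFKBIA (0.89 ± 0.098) were higher. NFKB1 (-0.62 ± 0.079) and REL (-0.77 ± 0.19) were lower. The feedback gene TNFAIP3 was not called (limma adjusted p = 0.99), with a sign that turned under 4 alternatives. Interferon and HLA class I genes split 7 to 7 of 25, near the 28.0% higher and 28.4% lower of all genes tested. The ratio of H-Ras to vector was 44.8 (95% counting interval 11.9 to 371) for IFI44L, and BST2 (3.54 ± 0.38), IFI6 (1.57 ± 0.19) and OAS1 (1.47 ± 0.29) rose, and OAS3 (-1.66 ± 0.17) and IFIT2 (-1.20 ± 0.25) fell.

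**Figure D3:**
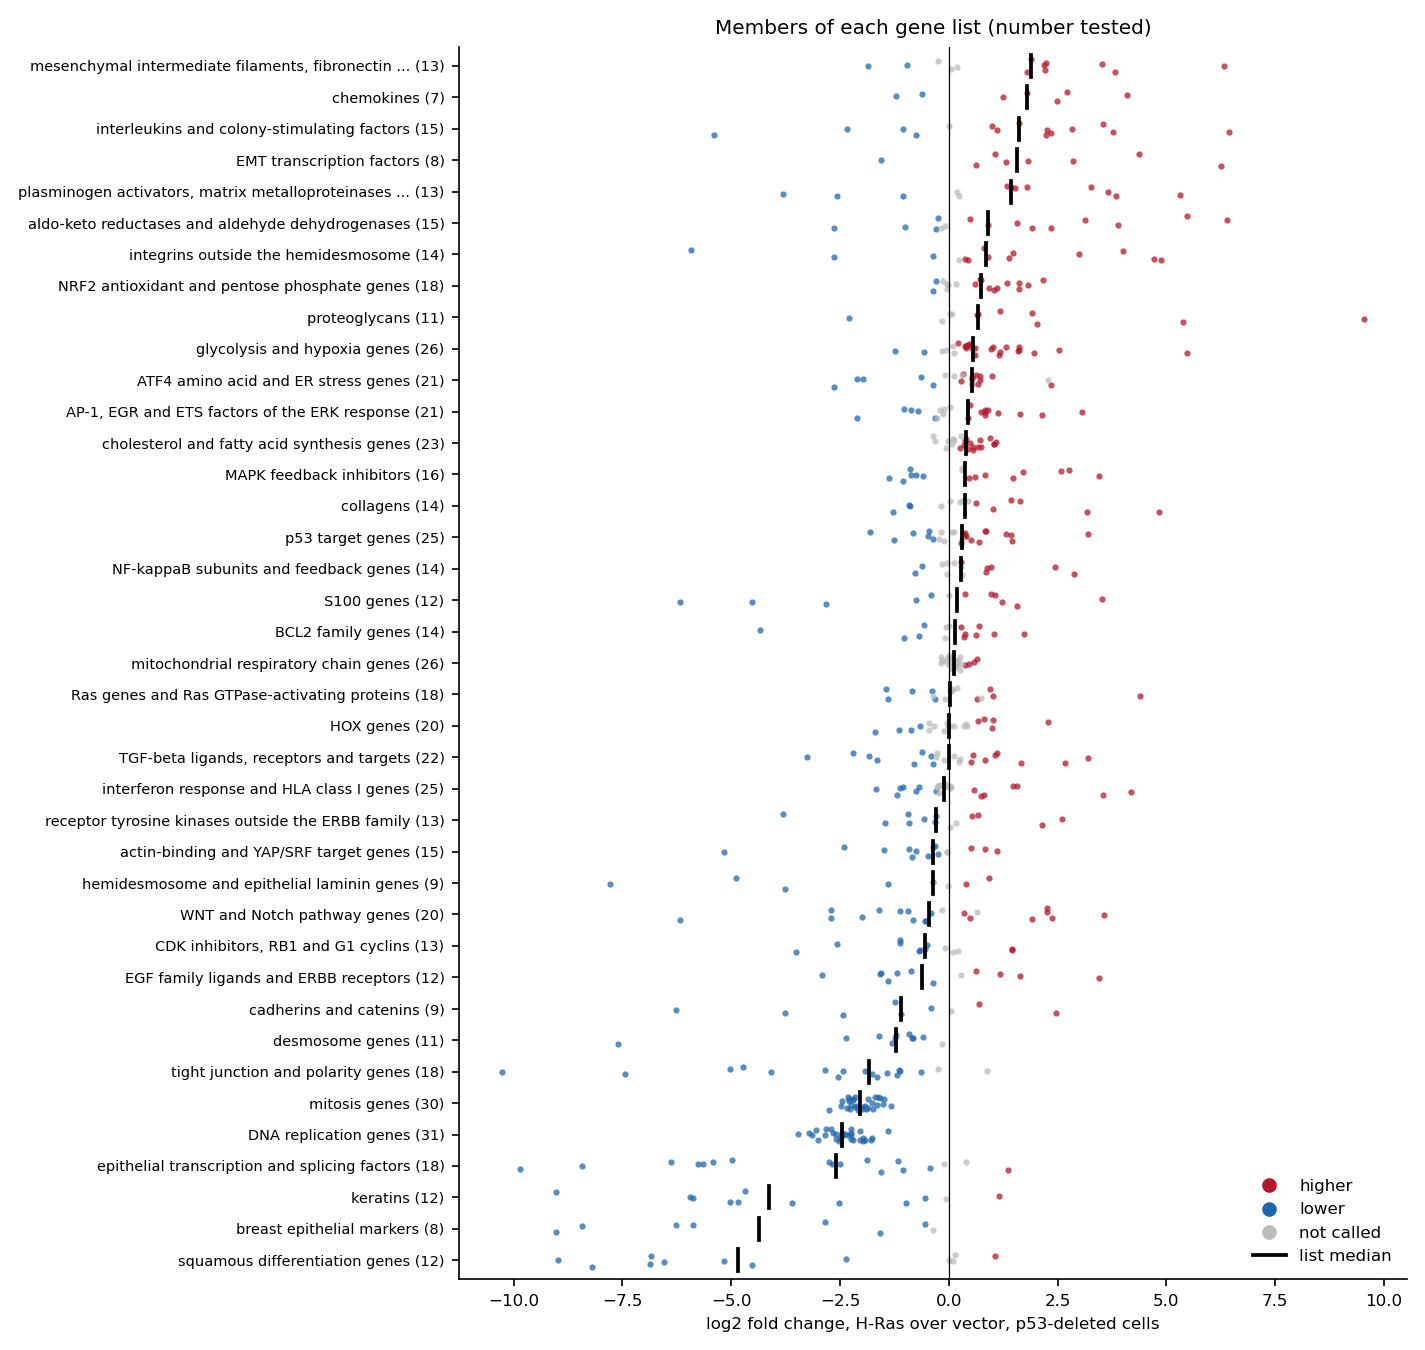
Each row is a gene list with at least 5 genes tested, ordered from the highest to the lowest median; each point is a gene's log2 fold change of H-Ras over vector in p53-deleted cells, coloured by its call, and the black bar is the list median. DNA replication genes (median -2.44) and mitosis genes (median -2.04) all lie below 0, and squamous genes have the lowest median (-4.85).

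Every DNA replication and mitosis gene listed was lower with H-Ras. Of 31 replication genes 31 fell, by 1.39 to 3.46 on the log2 scale (median -2.44), and of 30 mitosis genes 30 fell, by 1.32 to 2.76 (median -2.04), against 28.4% lower among all genes tested. MCM2, a subunit of the replicative helicase, had 236, 223 and 271 in the H-Ras libraries, against 1651, 1523 and 2046 in the vector libraries (-2.83 ± 0.12, limma adjusted p = 9.5e-09). PCNA, the sliding clamp of DNA polymerases, had 547, 532 and 526, against 2642, 2337 and 2614 (-2.24 ± 0.08), and CDC6, which loads the helicase, had 101, 150.1 and 128, against 1037, 1049 and 1054 (-3.04 ± 0.13). The groups did not overlap for any replication gene, against no overlap in 63.5% of all genes tested. MCM10 (-3.46 ± 0.11), GINS1 (-3.22 ± 0.11) and GINS2 (-3.15 ± 0.18), which activate the helicase, fell most. Among mitosis genes, CDK1, the kinase that starts mitosis, had 219, 282 and 286 with H-Ras, against 1372, 1646 and 1341 with vector (-2.47 ± 0.12, limma adjusted p = 3e-08). MAD2L1, a spindle checkpoint protein, had 209, 280.0 and 301, against 1286, 1365 and 1330.4 (-2.33 ± 0.12), and CCNB1, the cyclin B partner of CDK1, had 546, 1103 and 1150.4, against 2739, 3580.2 and 2538 (-1.66 ± 0.24). H-Ras library A was the lowest for these 3 genes and for AURKB (-2.76 ± 0.18) and CCNA2 (-2.46 ± 0.21). Without it 29 of the 30 mitosis genes were called, as under 5 other alternatives. The groups overlapped only for CENPE, a kinesin of the kinetochore, whose vector library C was low.

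E2F factors control replication genes, and the DREAM and B-MYB-FOXM1 complexes act on mitosis genes through CHR elements, commonly in promoters that also hold CCAAT boxes bound by NF-Y, so the promoters of 4 of these genes are shown (RefSeq GRCh38.p14, 250 bases before to 50 after the start). Capitals mark the E2F letters TTTCGCGC, TTTGGCGC, TTTCCCGC and TTTGCCGC in the first 2, and the CHR letters TTTGAA and TTCGAA and the box CCAAT in the others, on either strand. MCM2 lies at chr3:127598161-127598460 (plus strand), and its 2 matches, on opposite strands, overlap. CDC6 lies at chr17:40287629-40287928 (plus strand), CDK1 at chr10:60778081-60778380 (plus strand) and MAD2L1 at chr4:120066799-120067098 (minus strand). The CHR letters and the CCAAT box stand close together in the CDK1 window and at opposite ends of the MAD2L1 window. CDK1 has 2 listed starts, of which the first was taken, so that its window and matches hold for that start only.
MCM2: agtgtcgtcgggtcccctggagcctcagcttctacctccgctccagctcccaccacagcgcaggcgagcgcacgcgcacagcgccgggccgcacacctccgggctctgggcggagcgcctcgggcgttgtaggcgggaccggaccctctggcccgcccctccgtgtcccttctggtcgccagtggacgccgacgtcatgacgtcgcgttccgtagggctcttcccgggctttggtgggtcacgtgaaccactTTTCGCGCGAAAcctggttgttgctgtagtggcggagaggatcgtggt
CDC6: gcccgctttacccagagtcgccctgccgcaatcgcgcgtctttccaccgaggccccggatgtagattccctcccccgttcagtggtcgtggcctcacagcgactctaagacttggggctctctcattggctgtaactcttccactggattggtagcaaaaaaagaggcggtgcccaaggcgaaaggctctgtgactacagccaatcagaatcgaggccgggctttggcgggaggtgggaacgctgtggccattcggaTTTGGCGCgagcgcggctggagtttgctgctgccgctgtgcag
CDK1: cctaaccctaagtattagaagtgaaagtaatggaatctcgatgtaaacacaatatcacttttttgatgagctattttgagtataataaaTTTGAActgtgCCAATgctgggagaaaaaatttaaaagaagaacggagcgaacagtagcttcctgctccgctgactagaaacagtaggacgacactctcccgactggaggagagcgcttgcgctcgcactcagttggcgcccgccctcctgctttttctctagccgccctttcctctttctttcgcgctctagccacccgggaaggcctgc
MAD2L1: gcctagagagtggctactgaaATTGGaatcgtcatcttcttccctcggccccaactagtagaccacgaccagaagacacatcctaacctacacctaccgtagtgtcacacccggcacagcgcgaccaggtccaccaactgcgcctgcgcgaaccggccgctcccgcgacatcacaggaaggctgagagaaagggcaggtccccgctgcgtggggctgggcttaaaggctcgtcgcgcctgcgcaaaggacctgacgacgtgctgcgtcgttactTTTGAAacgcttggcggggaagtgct
The E2F letters stood in 17 of the 27 replication promoters in the table (63.0%), against 3.33% of all 27305 promoters and 3 of 25 mitosis promoters (12%). The CHR letters stood in 19 of 25 mitosis promoters (76.0%), against 16.6% of all promoters and 2 of 27 replication promoters (7.41%). CCAAT stood in 20 of 25 mitosis promoters (80.0%) and 17 of 27 replication promoters (63.0%), against 35.7% of all. One start was taken per gene, and 27 of 31 and 25 of 30 genes matched. The shares describe the letters near the starts of genes that were listed for their roles, and say nothing of which factor acted here.

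Inhibitors and drivers of the cell cycle fell more often than they rose, with CDKN1A and CDKN1C as exceptions. CDKN1A, which encodes the CDK inhibitor p21, had 2729, 2202 and 2190.5 in the H-Ras libraries, against 777, 889.9 and 924 in the vector libraries (1.46 ± 0.11, limma adjusted p = 5.7e-07). CDKN1C, a related inhibitor, rose too, at 13.03, 17.2 and 21.6 against 2.90, 5.86 and 8.39 (1.45 ± 0.38). CCND2, cyclin D2, had 9.31, 6.09 and 7.22, against 95.7, 81.1 and 113 (-3.52 ± 0.24), and CCNE2 had 31.6, 27.4 and 20.6, against 168, 165 and 151 (-2.56 ± 0.19). CCNE1 (-1.12 ± 0.11), CDKN1B (-0.54 ± 0.11) and CDKN2C (-1.13 ± 0.22) fell, for 2 higher and 8 lower of 13. CDKN2A, which encodes p16, had 0 reads in all 6 libraries. Of 25 genes known as p53 targets 13 rose and 6 fell in these groups, both of which carry the p53 deletion. Over all genes tested 28.0% rose and 28.4% fell. GDF15 and CDKN1A, above, and TP53INP1 (1.44 ± 0.12), RRM2B (1.32 ± 0.088) and MDM2 (0.51 ± 0.083) were higher, and SERPINB5, which encodes the epithelial serpin maspin, had 1568, 1401 and 1402, against 4956, 4932 and 5369.9 (-1.80 ± 0.081); DDB2 fell too (-1.26 ± 0.14). Among 14 BCL2 family genes 7 rose and 4 fell, the latter near the 28.4% lower of all genes tested. MCL1, a survival protein, had 18378, 17282 and 17859 with H-Ras, against 5309, 5313 and 5641 with vector (1.72 ± 0.082, limma adjusted p = 2.4e-08). BCL2L1 rose (0.35 ± 0.11) and BCL2 fell (-0.68 ± 0.18). Of the death-promoting members, BMF (1.03 ± 0.24), BBC3 (0.69 ± 0.18) and PMAIP1 (0.62 ± 0.19) rose, BIK fell (-1.03 ± 0.18), and HRK had a vector to H-Ras ratio of 76.5 (95% counting interval 13.7 to 3138). Some of these calls were fragile. BCL2L1 lost its call without H-Ras library A (adjusted p = 0.085), without vector library B (0.079) and under 2 other settings, PMAIP1 without H-Ras library A (0.062), without vector library C (0.067) and without the trend (0.054), and BMF when all 12 libraries shared the fit (0.077).

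Genes of carbonyl reduction and antioxidant defence rose more often than they fell. AKR1C1, a reductase of steroids and carbonyls, had 3697, 3950.2 and 3768 in the H-Ras libraries, against 39.6, 54.7 and 37.7 in the vector libraries (6.40 ± 0.13, limma adjusted p = 3.1e-11). Its neighbours AKR1C2, at 3645, 3482 and 3351 against 64.7, 87.9 and 78.6 (5.48 ± 0.11), and AKR1C3, at 2234, 2321 and 2125 against 145, 173 and 133 (3.88 ± 0.10), rose too. Their sequences are close, and reads may be split among them. AKR1B1, aldose reductase, rose (2.36 ± 0.09), and ALDH3A1 had 193, 159 and 181, against 18.4, 22.5 and 17.8 (3.12 ± 0.17). ALDH1A3, which makes retinoic acid, had 2084, 1566 and 1779, against 10984, 11695 and 11124 (-2.64 ± 0.10), and ALDH4A1, a mitochondrial member, also fell, with means of 48.2 and 97.4 in the H-Ras and vector groups, for 9 higher and 4 lower of 15. Without H-Ras library A or C, without vector library C and under 3 other settings 2 were lower. Of 18 genes tied to NRF2, the factor that answers oxidants, 11 rose and 2 fell. TXNRD1, thioredoxin reductase, had 11289, 10625 and 10428 with H-Ras, against 3256, 3605 and 3637 with vector (1.62 ± 0.083, limma adjusted p = 4e-08). NQO1 (0.74 ± 0.12), HMOX1 (1.04 ± 0.18) and the ferritin chains FTH1 (1.81 ± 0.23) and FTL (1.61 ± 0.11) rose. The 2 that fell were KEAP1 (-0.36 ± 0.11), which holds NRF2 down, and TXN (-0.30 ± 0.098). Without H-Ras library B neither was called (adjusted p = 0.054 and 0.063), and TXN also lost its call without H-Ras library C (0.094), vector library A (0.096) or B (0.075) and under 2 other settings.

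Glycolysis, hypoxia and lipid genes rose more often than they fell, while most respiratory chain genes were not called. Of 26 glycolysis and hypoxia genes tested, 20 rose and 2 fell (median 0.56). CA9, a carbonic anhydrase induced by hypoxia, had 23.3, 45.6 and 60.8 with H-Ras and 0 reads with vector, at least 43.4-fold higher. VEGFA, the angiogenic growth factor, had 1757, 1329.9 and 1398, against 351, 474 and 326 (1.96 ± 0.14), and ENO2 (2.53 ± 0.19), ALDOC (1.62 ± 0.18) and LDHA (0.45 ± 0.11) rose. The glucose transporter SLC2A1 had 628, 692 and 734, against 1597, 1388 and 1890.2 (-1.25 ± 0.11), and PFKFB3, an activator of glycolysis, fell as well (-0.57 ± 0.081). Of 23 cholesterol and fatty acid genes 15 rose and 0 fell, with a median of 0.39; none fell in the alternatives either, other than 1 without H-Ras library C and 2 without vector library B. FASN, fatty acid synthase, had 18160.2, 22691 and 24738, against 9808, 7531 and 14446 (1.05 ± 0.20, limma adjusted p = 0.0008). INSIG1 (1.09 ± 0.14), SCD (1.05 ± 0.17) and SREBF1 (0.94 ± 0.21) rose. Vector library B was the low one for these lipid genes. The ATF4 and ER stress list counted 11 higher and 5 lower of 21, against 28.0% higher and 28.4% lower of all genes tested. It had 7 higher without the trend and 3 higher when all 12 libraries shared the fit. VLDLR (2.36 ± 0.21), ASNS (0.99 ± 0.11), HERPUD1 (0.72 ± 0.11), ATF4 (0.33 ± 0.11) and DDIT3 (0.72 ± 0.28) were higher, and SLC7A5, a transporter of large amino acids, had 4399, 3591 and 3841, against 22403, 23089 and 28013 (-2.63 ± 0.11, limma adjusted p = 9.8e-09). The smaller changes were fragile. DDIT3 kept its call without vector library A but lost it without any other library (adjusted p = 0.07 to 0.11), ATF4 lost it without H-Ras library A (0.098) or vector library B (0.093), and in the fit of all 12 libraries ASNS (0.2), ATF4 (0.13) and DDIT3 (0.066) all did. Of 26 respiratory chain genes encoded in the nucleus or the mitochondrion 4 rose and 0 fell, with 10 higher under upper-quartile scaling and 2 without H-Ras library C. The share called in the main fit (15.4%) was below the 56.3% of all genes tested. UQCRH had 0.38 ± 0.098, NDUFB1 0.58 ± 0.15, COX5B 0.64 ± 0.20 and NDUFA2 0.45 ± 0.14, and NDUFA1 was not called (0.20 ± 0.099, limma adjusted p = 0.1, or 0.04 under upper-quartile scaling). Without H-Ras library C both COX5B (0.081) and NDUFA2 (0.065) lost their calls, and COX5B did so without vector library C (0.071) and under 2 other settings.

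Actin-binding and YAP/SRF target genes fell more often than they rose, 10 against 3 of 15. TAGLN, which encodes the actin bundler transgelin, had 15.8, 14.2 and 14.4 in the H-Ras libraries, against 566, 594 and 534 in the vector libraries (-5.16 ± 0.14, limma adjusted p = 3.5e-10). MYL9, a myosin light chain, had 82.8, 35.5 and 38.1, against 306, 293 and 246 (-2.41 ± 0.27), and CNN2 (-1.48 ± 0.11) and TPM1 (-0.91 ± 0.085) fell. TPM2 rose (1.10 ± 0.079). ACTA2, smooth muscle actin, was low at 21.4, 21.3 and 28.9 against 19.3, 8.79 and 10.5 (0.84 ± 0.32). It lost its call without H-Ras library B (adjusted p = 0.054) or C (0.11), without vector library B (0.092) or C (0.083) and with no filter (0.06), and the YAP target ANKRD1 stayed under the minimum. S100 genes split 6 to 5 of 12. S100A6 had 52999.7, 47004 and 45112 with H-Ras, against 18174, 16009 and 14706 with vector (1.57 ± 0.11), and S100A13 rose (1.22 ± 0.084), while S100A14, an epithelial member, had 290.4, 140.0 and 174, against 15724, 13522 and 14436 (-6.17 ± 0.20, limma adjusted p = 1.3e-09). S100A7 had a vector to H-Ras ratio of 87.6 (95% counting interval 16.02 to 3655). For S100A2 only deposited means are given, 5031 with H-Ras and 46810.2 with vector. Of the HOX genes, which hold positional identity, 5 rose and 4 fell of 20 tested, with a median of 0.0086; the shares called were no higher than the 28.0% and 28.4% of all genes. HOXA6 (2.27 ± 0.49), HOXC10 (1.01 ± 0.30), HOXC5 (1.000 ± 0.24) and HOXC8 (0.80 ± 0.17) were higher, HOXA11 (-1.71 ± 0.39) and HOXC11 (-1.15 ± 0.21) lower, and HOXA2 was not called (-0.011 ± 0.23, limma adjusted p = 0.99). HOXC10 lost its call without H-Ras library B (0.055).

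The largest gains came from genes of many kinds. CADM3, an immunoglobulin-like adhesion molecule known from neurons, had 275, 267 and 319 with H-Ras and 0 reads with vector, and was at least 288-fold higher. STC1, the secreted hormone stanniocalcin, had 2999, 1922 and 1925, against 4.83, 6.84 and 9.44 (8.15 ± 0.23), and FAM65B had 1878, 1964 and 1954, against 5.80, 5.86 and 10.5 (7.85 ± 0.19). The 2 genes were near 0 in every vector library. Ion channel genes were among them. KCNMA1, a calcium-activated potassium channel, had 412, 327 and 316, against 1.93, 1.95 and 2.10 (6.88 ± 0.21, limma adjusted p = 7.3e-10), CACNG8, a subunit that escorts AMPA receptors, had 155, 256 and 239, against 3.86, 0 and 0 (6.57 ± 0.53), and CHRNA9, a nicotinic receptor subunit, had 209, 90.3 and 82.5, against 0.966, 2.93 and 0 (5.80 ± 0.50). For GPR4, a proton-sensing receptor, the ratio of H-Ras to vector was 130.0 (95% counting interval 45.6 to 654). MEFV, which encodes the inflammasome protein pyrin, had 221, 339 and 370.1, against 1.93, 6.84 and 4.19 (5.87 ± 0.34), and GRAMD1B, a sterol transfer protein, had 335, 182 and 188, against 1.93, 3.91 and 1.05 (6.16 ± 0.35). APCDD1L-AS1 had 7.12 ± 0.49, but it lies antisense to another gene and the strand setting of the counting is not given, so reads of both genes cannot be told apart. PLCXD3, SFTPB and DARC had 0 reads with vector and were at least 55.4-, 37.9- and 37.8-fold higher. ROBO4, an endothelial guidance receptor, rose (2.61 ± 0.15), in libraries where PECAM1 had 0 reads.

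For several of the most abundant genes only deposited means are given. EEF1A1, an elongation factor, averaged 124321 with H-Ras and 143151 with vector, and ACTB, cytoplasmic actin, 33609.9 with H-Ras and 48949 with vector. TPT1 averaged 39723 with H-Ras and 47687 with vector, and the metallothionein MT2A 43965 with H-Ras and 32792 with vector. MT-CO1, a mitochondrially encoded oxidase subunit, averaged 54966 with H-Ras and 50937 with vector. Genes such as EEF1A1 and TPT1 have many pseudogenes that may share their reads.

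The H-Ras and vector lines with intact p53 allow the response to be compared between backgrounds, each against its own vector line. In this comparison p53 status and any other difference between the lines cannot be told apart. The contrast between backgrounds was called for 2311 of 13406 genes, which is 17.2%, with 1246 of them higher in p53-deleted cells. It was called for 1520 without p53-deleted H-Ras library C. The HRAS response itself differed by less than its error (0.10 ± 0.17, limma adjusted p = 0.73). Mucosal keratins stood at one end. KRT13 averaged 2.00 ± 2.06 with H-Ras and 1505 ± 520.5 with vector in p53-deleted cells (SD, n = 3), and 1.27 ± 1.46 with H-Ras and 4.53 ± 2.81 with vector in p53 wild-type cells, a difference of log2 responses of -7.69 ± 0.89 (limma adjusted p = 0.00013). KRT13 was thus high in only 1 of the 4 groups, the p53-deleted vector line. KRT4 (difference -6.35 ± 0.61), the serpin SERPINB2 (-6.48 ± 0.54), the elastase inhibitor PI3 (-5.63 ± 0.30) and CD22 (-5.39 ± 0.64) were also lower with H-Ras in p53-deleted cells, with log2 fold changes of -7.07, -5.36, -4.31 and -4.10, against -0.72, 1.12, 1.32 and 1.29 in p53 wild-type cells. The value of KRT4, with 0 H-Ras reads in p53-deleted cells, depends on the 1 added before the log, as does that of CADM3 below. At the other end, CAMK2B, a calmodulin-dependent kinase subunit, averaged 144 ± 18.9 with H-Ras and 21.5 ± 7.18 with vector in p53-deleted cells, and had 14.3, 8.60 and 7.08 with H-Ras and 827, 157 and 139.8 with vector in p53 wild-type cells (7.78 ± 0.76, limma adjusted p = 6.5e-05). Wild-type vector library A stood apart from the other two. SYT12, a synaptotagmin (7.06 ± 0.85), ALDH3A1 (5.79 ± 0.38), FAM65B (5.44 ± 0.44) and CADM3 (5.16 ± 0.75) had log2 fold changes of 4.85, 3.12, 7.85 and 8.17 in p53-deleted cells, against -2.22, -2.67, 2.41 and 3.004 in p53 wild-type cells. The sign of the log2 fold change was opposite between backgrounds for CAMK2B, SYT12, ALDH3A1, SERPINB2, PI3 and CD22.

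Some other genes, chosen for this comparison after their values were seen, also responded differently by background. SNAI2 had a log2 fold change of -1.57 in p53-deleted cells, against 1.39 in p53 wild-type cells (difference -2.96 ± 0.20, limma adjusted p = 2.6e-06). IL1A had -2.33, against 0.39 (-2.72 ± 0.29, limma adjusted p = 7.7e-05). COL6A1 had 1.44, against 4.85 (-3.41 ± 0.36, limma adjusted p = 7.5e-05), and EPCAM, the epithelial adhesion molecule, had -2.85, against -5.87 (3.02 ± 0.26, limma adjusted p = 1.4e-05), so both had the same sign and the smaller size in p53-deleted cells. COL6A1 averaged 1900 with H-Ras and 699 with vector in p53-deleted cells, and 84.7 and 1.97 in p53 wild-type cells. Its wild-type fold change rests on few vector reads and depends on the 1 added before the log. TXNRD1 had 1.62, against 0.30 (1.32 ± 0.12, limma adjusted p = 2.7e-05). For DNA replication genes the median log2 fold change was -2.44 in p53-deleted cells, against -1.07 in p53 wild-type cells, but the difference was called for only 1 of 31 genes, and for 6 of 30 mitosis genes. These counts depended on single libraries. Without wild-type H-Ras library C the median difference of the replication genes was -0.54, against -1.34 with it, and 4 were called. Without wild-type H-Ras library A 4 replication and 11 mitosis genes were called, and without wild-type H-Ras library B 9 and 16. The mitosis count was 3 without p53-deleted H-Ras library B or C or vector library C, and 1 without p53-deleted H-Ras library A, p53-deleted vector library A or B, or wild-type vector library A.

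**Figure D4:**
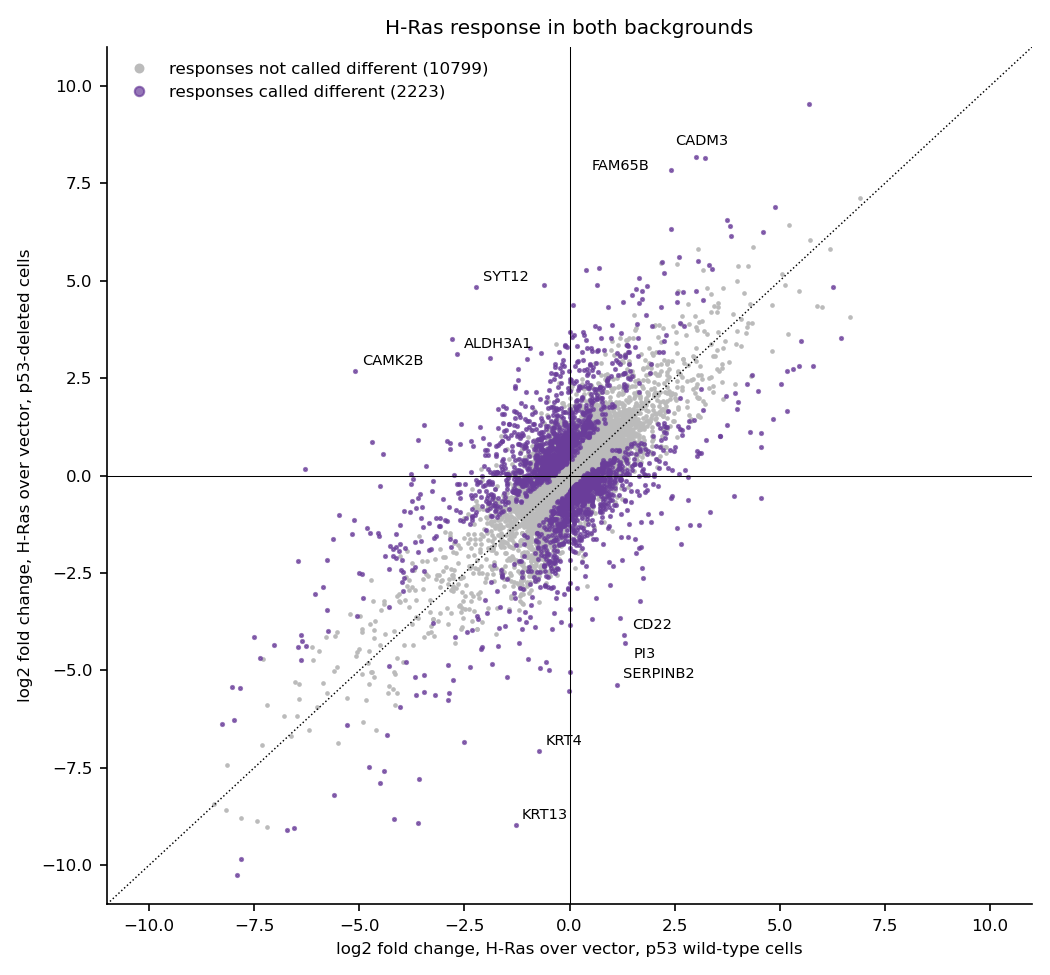
Each point is a gene tested in both comparisons; the axes give its log2 fold change of H-Ras over vector in p53 wild-type cells (horizontal) and in p53-deleted cells (vertical), and the dotted line marks equal responses. Purple marks 2223 genes whose responses were called different, and KRT13 and CAMK2B lie among the farthest from the line.

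Where genes lie was looked at after the values were seen, with chromosomes taken by gene identifier. Genes of chromosome 13 and of chromosome 20 were lower as groups in the H-Ras line. The 223 tested genes of chromosome 13 had a median log2 fold change of -0.32, with 29 higher and 114 lower (51.1% lower), and the 345 of chromosome 20 one of -0.22, with 74 higher and 153 lower (44.3%), against 28.4% lower over all genes tested. The medians of the other 21 chromosomes lay between -0.13 and 0.14. Each H-Ras library showed the shift: against the vector mean, the median of chromosome 13 was -0.33, -0.32 and -0.38, and that of chromosome 20 was -0.23, -0.28 and -0.21. In p53 wild-type cells the medians were 0.065 for chromosome 13 and -0.0096 for chromosome 20. Split into 6 runs of genes in order, chromosome 13 ranged from -0.42 to -0.25 in every run, while chromosome 20 had 0.14 in its first run and -0.40 to -0.22 in the other 5. DNA copy number was not measured here, and its part in these shifts was not tested. By gene type, 88 of 229 long intergenic noncoding RNAs rose and 33 fell (median 0.45), and 9 of 83 processed pseudogenes rose and 33 fell (median -0.42), against a median of -0.0038 over 11838 protein-coding genes. Reads of processed pseudogenes may come from their parent genes.

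**Figure D5:**
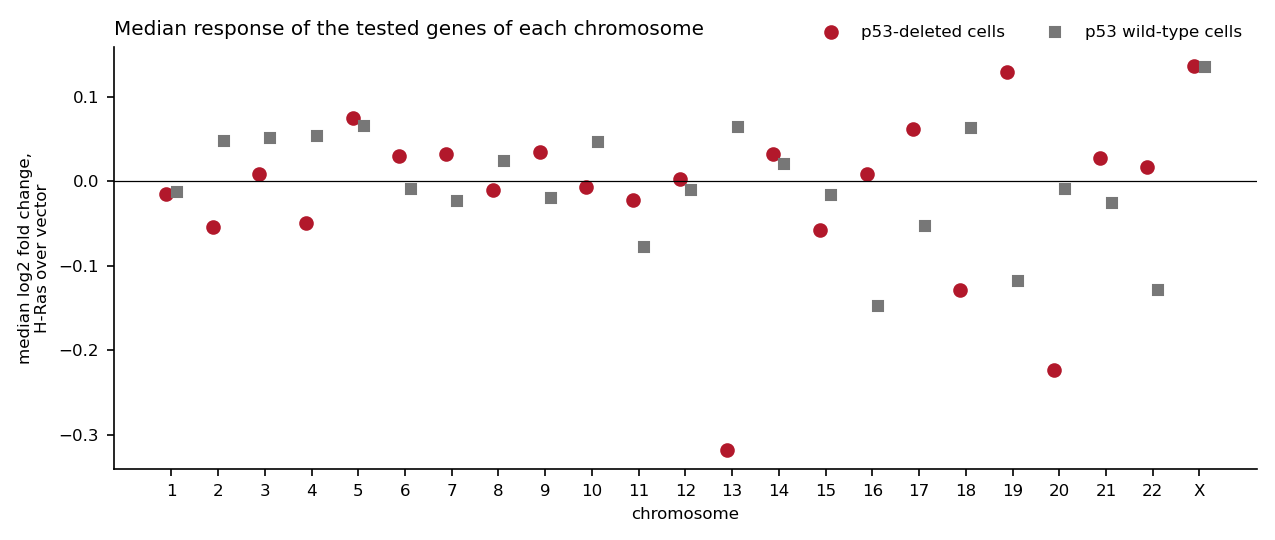
Median log2 fold change of H-Ras over vector over the tested genes of each chromosome, in p53-deleted cells (red circles) and p53 wild-type cells (grey squares). Chromosomes 13 (-0.32) and 20 (-0.22) lie lowest in p53-deleted cells, and the wild-type medians lie between -0.15 and 0.14.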

How the data were processed

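RNA of 12 MCF10A samples (4 groups of 3) was extracted with TRIzol, selected with oligo-dT and made into TruSeq libraries, per the labels' protocols. Per the submitters' processing notes the authors used FastQC, Trimmomatic, TopHat, SAMtools and HTSeq with GRCh37; versions, the strand setting and the tool that scaled the counts are not given in the sources used here. Of the deposited data, 2 tables, 1 per p53 background, hold normalised signal: per group, the mean of 3 libraries' read counts, each divided by a size factor. Because these means carry about 15 digits, the whole reads of single libraries could be solved from them; within a group they are called A, B and C. Solved values were used only where 1 set of whole reads within the bounds searched gave the deposited mean. For means up to 1000 all splits were searched. Above that, each library had to lie within 0.2 to 2.5 times the group mean. Narrower bounds of 0.5 to 1.6 times were used above 20000, and where several sets fitted the wider ones. Means above 60000 were not attempted. For 24 very abundant members no single set was found in 1 or both groups. The authors' deposited fold changes and p-values were not used.

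Genes with a group mean of at least 10 in either p53-deleted group were kept. log2(value + 1) of the 6 libraries was fitted with limma 3.58.1 in R 4.3.3 (mean-variance trend, two-sided, Benjamini-Hochberg adjusted p under 0.05 over all genes tested), which was tested on simulated data. The difference between backgrounds was 1 contrast over all 12 libraries, since each table was scaled on its own. A gene at 0 reads in a group was set against a floor of 3 reads over that group, and groups with 1 to 3 reads got a ratio with a 95% counting interval. Intervals and floors cover counting error only. List medians were the same with such genes at their bound.

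Named genes were HRAS, the 15 largest called changes in each direction with a mean of at least 100, the members at positions 1 and 2 of each list and up to 4 further called ones in the direction with more calls and 2 in the other, the 5 largest called differences between backgrounds in each direction, the 5 most abundant genes of a group and the 5 most abundant with 0 reads in the other group. CD14, LAPTM5 and other markers are named from their lists, and CENPE after its values were seen. Some genes that this rule names are not reported here one by one, and stay in the counts and medians of their lists. The members and the 42 gene lists were chosen with earlier results of these data known. Promoters and the miRNA are from RefSeq (GRCh38.p14). Pseudocounts, filters, scalings, error models and single libraries were varied.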

Additional observations from a re-analysis of the deposited data

Results flagged for a closer look

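These genes answered H-Ras differently in the p53-deleted and the p53 wild-type lines by the test of the difference itself. It was limma over 12 libraries, for the log2 response in p53-deleted minus p53 wild-type cells, with adjusted p under 0.05. The part of p53 and that of other differences between these lines cannot be told apart. Higher in p53-deleted cells were CAMK2B (7.78), SYT12 (7.06), ALDH3A1 (5.79), FAM65B (5.44), CADM3 (5.16), EPCAM (3.02) and TXNRD1 (1.32). Lower in p53-deleted cells were KRT13 (-7.69), SERPINB2 (-6.48), KRT4 (-6.35), PI3 (-5.63), CD22 (-5.39), COL6A1 (-3.41), SNAI2 (-2.96) and IL1A (-2.72). All 15 kept their sign and stayed called in the 20 alternatives run for each, which include leaving out each library. EPCAM, TXNRD1, COL6A1, SNAI2 and IL1A were chosen after their values were seen.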

How the results depend on the processing

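The count of genes called in p53-deleted cells lay between 6118 (fit of all 12 libraries) and 7551 (no filter), against 7336, and was 6269 to 7185 with 1 library left out. It was 2685 when a log2 change of 1 or more in size was also required. Upper-quartile scaling moved the median of all genes to 0.06 and gave 4032 higher and 3296 lower. The count of genes differing between backgrounds was 1520 to 2284 with 1 library left out, with the lowest value without p53-deleted H-Ras library C, and at most 2467. Of 265 named genes tested, 16 lost their call and 4 gained one under some alternative, and 258 were called. Signs turned only for 3 of these genes that were not called. IL1B was at 0.0081 with equal total reads, 0.053 with equal upper quartile, and -0.19 to 0.088 with 1 library left out (above 0 without H-Ras library B or C or vector library C). TNFAIP3 was at 0.0103 with equal upper quartile, 0.0024 with limma-voom, and -0.23 to 0.29 with 1 library left out (above 0 without H-Ras library C or vector library B). HOXA2 was at 0.0055 with equal total reads, 0.042 with equal upper quartile, 0.0073 with limma-voom, and -0.13 to 0.21 with 1 library left out (above 0 without H-Ras library A or vector library C). The cause was not tested. No paired analysis was possible because the deposited tables hold group means and the solved libraries carry no replicate number. Depth limits the genes near the minimum, where 1 read is worth about 1 normalised read.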

Other observations

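The number of members that responded differently by background is given here for further gene lists, beside 17.2% of all genes tested; the range with 1 of the 12 libraries left out follows each count but that of the last list, for which it was not computed. These lists were chosen from a larger set after their counts had been seen, so the counts describe these lists only. Of 9 hemidesmosome and epithelial laminin genes 7 were called, 5 lower and 2 higher in p53-deleted cells (6 to 7). Of 15 aldo-keto reductases and aldehyde dehydrogenases 7 were called (7 to 8), all higher, with list medians of 0.91 in p53-deleted cells and -0.43 in p53 wild-type cells. Of 18 NRF2-linked genes 5 were called (4 to 6), all higher, and so were 6 of 23 cholesterol and fatty acid genes (4 to 7), with medians of 0.39 in p53-deleted cells and -0.20 in p53 wild-type cells. Of 13 CDK inhibitors, RB1 and G1 cyclins 5 were called lower and 1 higher (3 to 5 in all, so at least 1 call was lost whichever library was left out, with the lowest count without p53-deleted vector library A), with medians of -0.54 in p53-deleted cells and 0.052 in p53 wild-type cells. Of 25 p53 targets 7 were called higher and 2 lower (8 to 11 in all), with medians of 0.30 in p53-deleted cells and -0.068 in p53 wild-type cells. Of 14 NF-kappaB subunits and feedback genes 4 were called, all higher, but the count did not hold (1 to 5): it was 1 or 2 with any single library left out other than p53 wild-type H-Ras libraries A and B and p53 wild-type vector library C. Of 25 interferon response and HLA class I genes 4 were called higher and 1 lower.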
